A study of Mus musculus with 20 samples.

Results

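The cytochrome P450 genes of families 1, 2 and 3 were taken as every non-control array probe whose gene name begins with Cyp, the family number 1, 2 or 3, a subfamily letter and a gene number. This gave 72 probes of 48 genes, out of 41174 probes carrying 27376 gene names. Livers came from male C57BL/6J mice fed a diet with 60% of its energy as fat from weaning, and were collected at 6 weeks of age. The 10 livers labelled R belonged to diet-induced obesity responders, the susceptible animals, and the 10 labelled NR to non-responders, the resistant animals of the same strain on the same diet. No liver from a low-fat diet was analysed here. The sources used here do not say how the animals were sorted. The labels also do not say that each array held the RNA of a separate animal, so the p-values measure only the spread among the samples, which may be technical. Each liver's RNA was hybridised to a 1-colour Agilent array.

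Family 1, 2 and 3 P450s are heme enzymes of the endoplasmic reticulum that oxidise drugs, pollutants, steroids, fatty acids and retinoids. They take their electrons from the reductase Por and, for some substrates, from cytochrome b5. In liver, family 1 genes are classical targets of the aryl hydrocarbon receptor, and subfamilies 2b, 2c and 3a of the xenobiotic receptors CAR (Nr1i3) and PXR (Nr1i2). Many members differ between male and female mouse liver under the control of growth hormone, and many are densest in hepatocytes around the central vein.

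Levels are log2 signals relative to the array's own 75th percentile, so 0 is as bright as the 75th percentile of the array's non-control spots. Differences are responder minus non-responder in the same log2 unit, from limma with the slide series (below) as a term, and adjusted p-values are Benjamini-Hochberg values over all 26160 tested probes. A probe was tested when at least 5 arrays of 1 group read it well above background. Of the 72 probes, 59 passed, covering 46 genes, and each gene is given by its brightest tested probe. The genes Cyp2b23 and Cyp2w1 had no tested probe. The other 11 probes that did not pass belonged to Cyp1b1, Cyp2b9, Cyp2b10, Cyp2b13, Cyp2b19, Cyp2g1, Cyp2j11, Cyp2j13 (2 probes), Cyp2s1 and Cyp3a44, each of which had another probe that passed.

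Per array, 55.8% to 71.2% of the non-control spots exceeded background clearly, and none was saturated. The slides fell into 2 series by their numbers, each scanned on a single date. The first held 4 responder and 6 non-responder livers, and the second held 6 responder and 4 non-responder livers. Of 4 tested hepatocyte markers, Alb, Apoa1 and Ttr had differences of 0.03 (SE 0.10), 0.01 (SE 0.08) and 0.08 (SE 0.11), and Tat one of -0.50 (SE 0.26, -0.94 in the first and -0.07 in the second series). Albumin averaged 9.91 ± 0.29 in responders (SD, n = 10). No marker of any cell type passed the adjusted threshold. Of 7 tested adipose markers, 6 were lower in responders, 5 of them at an unadjusted p under 0.05, with a median difference of -1.36. The mean level of these 7 lay between -2.48 and 0.31 in responder livers and between -1.64 and 1.62 in non-responder livers, and 2 further adipose markers, Lep and Adig, were too dim to test. Stellate cell and fibroblast markers had lower responder means in 6 of 6 cases, 4 of them at an unadjusted p under 0.05. Their mean level lay between 1.47 and 2.68 in responders and between 1.75 and 2.99 in non-responders. Of 9 pancreas acinar markers 8 were lower in responders, none at an unadjusted p under 0.05, with a median difference of -0.51. Their mean lay between -4.86 and 5.30 in responders and between -3.94 and 5.30 in non-responders. Median differences of the cholangiocyte, endothelial and Kupffer cell and leukocyte lists were 0.21, -0.07 and -0.14, with 4 of 6, 2 of 5 and 1 of 6 members higher. The part of these markers in the P450 values was not tested.

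The probes that carry the results below are shown first. The 3 probes with the smallest p-values in the group comparison measured Cyp1b1, Cyp2u1 and Cyp3a13, on chromosomes 17, 3 and 5 of the mm9 mouse genome (chr17:80106547-80106606, chr3:131000768-131000827 and chr5:138335318-138335377, all minus strand, per the array annotation).
Cyp1b1: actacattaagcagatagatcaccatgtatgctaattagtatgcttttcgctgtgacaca
Cyp2u1: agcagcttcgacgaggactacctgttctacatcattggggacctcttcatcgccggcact
Cyp3a13: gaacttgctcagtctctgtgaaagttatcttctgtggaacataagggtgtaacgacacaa

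Cyp2a4 and Cyp2a5 are closely related genes of the same P450 cluster on chromosome 7, with probes of Cyp2b19, Cyp2b23 and Cyp2g1 lying between theirs, and their probes had among the widest spreads between livers. The probe of each with the longest shared stretch is shown because it bears on whether the genes can be told apart. The Cyp2a4 probe lies at chr7:27099972-27100031 and the Cyp2a5 probe at chr7:27628169-27628228 (mm9, plus strand). This Cyp2a4 probe is not the gene's brightest one, from which its levels and differences below are taken. They share 38 overlapping positions, of which 35 are equal, and capitals mark the 3 mismatches.
Cyp2a4: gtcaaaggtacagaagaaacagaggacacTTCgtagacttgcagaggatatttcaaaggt
Cyp2a5: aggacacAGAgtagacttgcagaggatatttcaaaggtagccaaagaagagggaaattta

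Signals of Cyp2a4 and Cyp2a5 are therefore reported as uncertain between the 2 genes. Their promoters are near copies as well. In the RefSeq promoter windows on GRCm38.p6, from 250 bases before to 50 bases after the gene start, 294 of 299 aligned bases were equal, or 98.3%. The windows are chr7:26306942-26307241 for Cyp2a4 and chr7:26835089-26835388 for Cyp2a5, both on the plus strand, and capitals mark the 5 differences.
Cyp2a4 promoter: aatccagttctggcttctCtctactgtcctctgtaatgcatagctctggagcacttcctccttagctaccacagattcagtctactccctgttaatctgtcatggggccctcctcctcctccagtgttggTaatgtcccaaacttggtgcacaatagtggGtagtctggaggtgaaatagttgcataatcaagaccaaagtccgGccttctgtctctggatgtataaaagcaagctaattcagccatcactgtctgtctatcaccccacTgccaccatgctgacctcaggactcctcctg
Cyp2a5 promoter: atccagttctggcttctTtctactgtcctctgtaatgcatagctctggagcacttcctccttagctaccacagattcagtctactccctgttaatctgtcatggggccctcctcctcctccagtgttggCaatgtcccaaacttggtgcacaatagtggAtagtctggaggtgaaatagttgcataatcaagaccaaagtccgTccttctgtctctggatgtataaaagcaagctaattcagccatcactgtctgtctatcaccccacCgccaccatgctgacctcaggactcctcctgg

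Among all 2556 pairs of member probes, 5 were equal at over 80% of the bases in some ungapped placement of at least 20 bases. Of these, 3 joined different genes: Cyp2a4 with Cyp2a5, Cyp2j11 with Cyp2j13 (28 of 30 bases) and Cyp2c40 with Cyp2c54 (38 of 46 bases). The probes of Cyp3a11, Cyp3a16, Cyp3a41a and Cyp3a44, which moved together across livers, are shown because they are unlike each other: none of their 6 pairs was equal at more than 50% of the bases. They lie on chromosome 5 at chr5:146672058-146673925, chr5:146197274-146197333, chr5:146505792-146505851 and chr5:146585954-146586013 (mm9, minus strand).
Cyp3a11: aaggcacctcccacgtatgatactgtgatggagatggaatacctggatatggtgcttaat
Cyp3a16: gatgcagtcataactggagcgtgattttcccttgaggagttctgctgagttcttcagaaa
Cyp3a41a: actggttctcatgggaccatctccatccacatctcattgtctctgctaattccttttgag
Cyp3a44: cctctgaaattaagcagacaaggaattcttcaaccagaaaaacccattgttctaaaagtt

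The first comparison asked which of these P450s differed between the livers of responders and non-responders. None passed the adjusted threshold of 0.05 (0 of 59 probes, beside 0% of all tested probes, or 0 of 26160). Before adjustment 3 of 59 probes had a p under 0.05, or 5.08%, against a background of 8.16% of all tested probes. The member count was 3 to 8 on leaving out single livers. It was 8 without responder 7 and 7 without responder 1 or non-responder 3. It was 6 without responder 3, and 5 without responder 10 or non-responder 9. Over all 26160 tested probes the count ran from 1746 to 2554 on leaving out single livers. It was 2256 without responder 7, 1822 without responder 1 and 2061 without non-responder 3. In no member probe did the 2 groups of livers fail to overlap, beside 0.00765% of all tested probes. By gene, 22 of 46 were higher and 24 lower in responders. The median difference was -0.01, against 0.01 over all tested probes, of which 51.9% were higher. The plot of differences by subfamily shows intervals that span 0 for all but 3 genes.

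**Figure D1:**
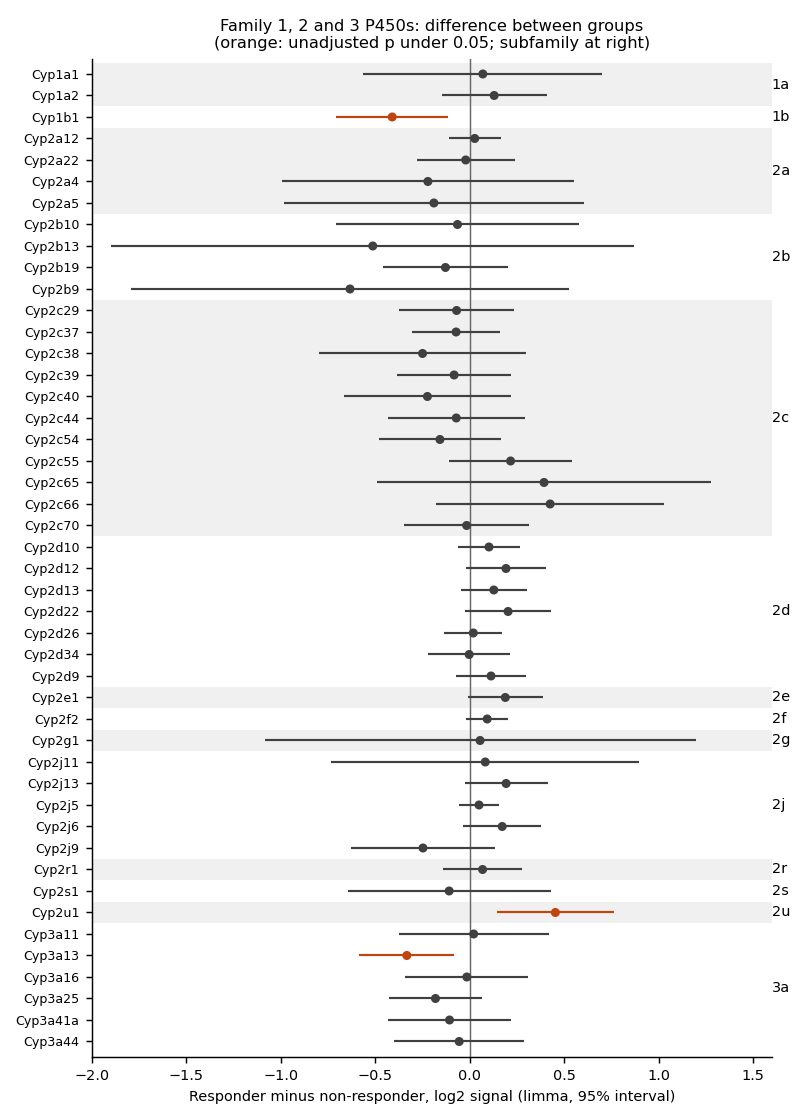
Difference in log2 signal, responder minus non-responder livers, for the brightest tested probe of each of 46 genes, with the 95% interval from limma; shading and the labels at right mark the subfamilies. The intervals of Cyp1b1, Cyp2u1 and Cyp3a13 (orange) leave out 0, at unadjusted p-values between 0.00612 and 0.0124, and those of Cyp2b9, Cyp2b13 and Cyp2g1 are the widest.

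Family 1 holds the enzymes that oxidise planar aromatic compounds. Cyp1b1 is the extrahepatic member, known mainly from mesenchymal cells. It was dim, although well above background in 9 responder and 10 non-responder livers. Its other probe, not tested, was so in 1 liver of each group. On the tested probe the level ran from -4.03 to -3.39 with a median of -3.58 in responders. In non-responders it ran from -3.71 to -2.40 with a median of -3.28. Every responder liver lay below the mean of the non-responder livers of its own slide series, although the ranges overlapped. The difference was -0.41 (SE 0.14, 1.33-fold lower, unadjusted p = 0.0089, limma adjusted p = 0.509), with -0.39 in the first and -0.43 in the second slide series. It turned to 0.26 under normexp, which gave implausible background means on 6 arrays. The collagen genes of the stellate list, Col1a1, Col1a2 and Col3a1, differed by -0.56 (SE 0.17), -0.39 (SE 0.13) and -0.34 (SE 0.15). Unlike for Cyp1b1, their differences lay mostly in the second series, at -0.90, -0.61 and -0.73. In the first series they were -0.22, -0.17 and 0.06. Their part in the Cyp1b1 value was not tested, and in whole liver fewer cells of a type and less RNA per cell cannot be told apart.

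The hepatic family 1 enzyme Cyp1a2, which clears caffeine, averaged 4.24 ± 0.32 in responders (SD, n = 10) and 4.10 ± 0.27 in non-responders (SD, n = 10). Its difference of 0.13 had a 95% interval of -0.15 to 0.41. Cyp1a1, the most inducible target of the aryl hydrocarbon receptor, was dim. It was well above background in 7 responder and 7 non-responder livers, with a difference of 0.07 (95% interval -0.56 to 0.70). Of 6 other targets of that receptor, 3 were tested. The quinone reductase Nqo1 differed by -0.31 (SE 0.14, limma unadjusted p = 0.0444, not passing the adjusted threshold), and Tiparp and Gsta1 by 0.01 and 0.02. The receptor's own gene, Ahr, differed by -0.01 (SE 0.16).

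Cyp2u1 encodes a fatty acid hydroxylase and is listed among male-predominant P450s of mouse liver. It had the smallest p-value of all members. Responder values ran from -0.25 to 0.85 with a median of 0.55, and non-responder values from -0.49 to 0.46 with a median of 0.01. In 9 of 10 responders the signal lay above the mean of the non-responders of the same series. The difference was 0.45 (SE 0.15, 1.37-fold higher, unadjusted p = 0.00612, limma adjusted p = 0.495). The slide series gave unlike values, 0.79 (SE 0.18) for the first and 0.11 (SE 0.18) for the second. The test of that contrast between series gave an unadjusted p of 0.0169 and an adjusted p of 0.423 in limma.

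**Figure D2:**
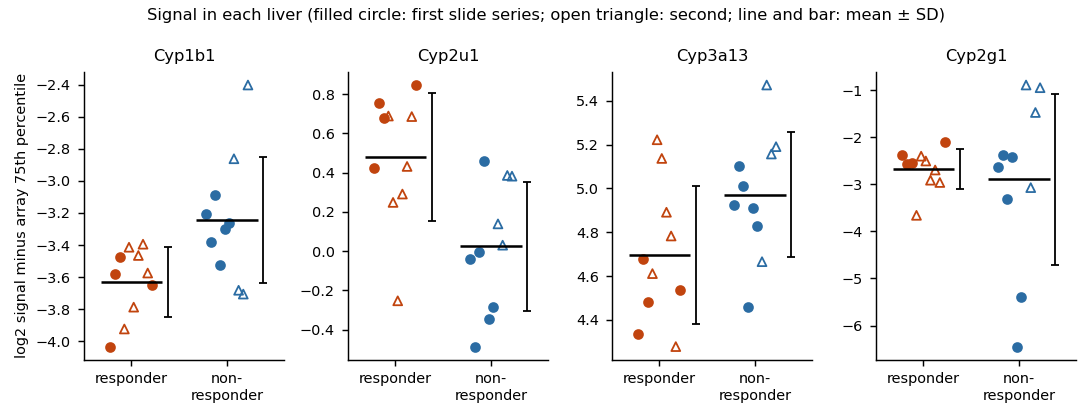
Log2 signal of 4 genes in each of 10 responder (left, orange) and 10 non-responder (right, blue) livers, with the mean as a line and the SD as a bar beside it; filled circles are the first slide series and open triangles the second. Cyp1b1 and Cyp3a13 sit lower and Cyp2u1 higher in responders with overlapping ranges, and 2 non-responder livers fall to -5.40 and -6.45 for Cyp2g1.

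Subfamily 3a holds the main steroid and drug hydroxylases. Cyp3a13, which is also expressed in the intestine, averaged 4.70 ± 0.32 in responders (SD, n = 10) and 4.97 ± 0.29 in non-responders (SD, n = 10). Values ran from 4.28 to 5.22 in responders and from 4.46 to 5.47 in non-responders, and in 8 of 10 responders the value was under that of the average non-responder in the same series. The difference was -0.33 (SE 0.12, 1.26-fold lower, unadjusted p = 0.0124, limma adjusted p = 0.521), with -0.36 and -0.30 in the first and second series. The other 5 genes of the subfamily differed by between -0.18 (Cyp3a25) and 0.02 (Cyp3a11), none at an unadjusted p under 0.05. Cyp3a11, the major PXR target of mouse liver, had a 95% interval of -0.38 to 0.42. Responders were lower in the first series for all 6 genes and higher in the second for 4 of 6. For Cyp3a16 the differences were -0.32 and 0.29, with a limma p of 0.045 for their contrast before and 0.491 after adjustment.

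Subfamily 2b contains the phenobarbital-inducible genes. All 4 tested members had lower responder means, with differences of -0.63 (SE 0.56) for Cyp2b9, -0.51 (SE 0.66) for Cyp2b13, -0.13 (SE 0.16) for Cyp2b19 and -0.06 (SE 0.31) for Cyp2b10. None had an unadjusted p under 0.05. Cyp2b10, the standard CAR target, was dim, at -4.47 ± 0.64 in responders (SD, n = 10) and -4.36 ± 0.77 in non-responders (SD, n = 10). It was nonetheless well above background in 9 livers of each group. Of 11 other CAR and PXR targets, 5 were higher and 6 lower, and 1 (Gadd45b, -0.48, SE 0.18) had an unadjusted p under 0.05. The direction of subfamily 2b depended on the background correction: with normexp all 4 members were higher in responders, and with plain background subtraction 2 were higher and 2 lower. Within each slide series alone 1 of the 4 was higher. Leaving out single livers moved the median between -0.50 and -0.18, and Cyp2b9 was under an unadjusted p of 0.05 without responder 6.

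Subfamily 2c holds fatty acid epoxygenases and steroid hydroxylases. Of its 11 genes 3 were higher and 8 lower in responders, none at an unadjusted p under 0.05, with a median of -0.07. That split was not stable: 6 of 11 were higher without responder 1 and in the first slide series alone, and the median ran from -0.12 to 0.0035 on leaving out single livers. Cyp2c29, an arachidonic acid epoxygenase, differed by -0.07 (SE 0.15), Cyp2c37 by -0.07 (SE 0.11), Cyp2c44 by -0.07 (SE 0.17), Cyp2c54 by -0.16 (SE 0.15), Cyp2c38 by -0.25 (SE 0.26) and Cyp2c39 by -0.08 (SE 0.14). The female-predominant Cyp2c40 differed by -0.22 (SE 0.21). Cyp2c70, which makes the muricholic bile acids of mice, differed by -0.02 (95% interval -0.35 to 0.32). Cyp2c65 and Cyp2c66, known chiefly from the gut, and Cyp2c55 were the 3 higher ones, at 0.39 (SE 0.42), 0.43 (SE 0.29) and 0.22 (SE 0.16). Cyp2c65 was well above background in 5 responder and 1 non-responder livers, and Cyp2c66 in 5 responder and 3 non-responder livers. Both thus passed the filter through the responder arrays alone, so their higher responder values are not independent of it. With only probes well above background on all 20 arrays, 0 of 8 genes of the subfamily were higher and 8 lower.

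Subfamily 2d, relatives of the human debrisoquine hydroxylase, was bright and even. Of 7 genes 6 were higher in responders, with a median of 0.11 and a highest value of 0.20 (Cyp2d22, SE 0.11). None had an unadjusted p under 0.05, although Cyp2d12 and Cyp2d22 did with quantile normalization, with the authors' deposited values and without any 1 of responder 1, responder 7 or non-responder 3. The lowest was Cyp2d34, which differed by -0.0026 (95% interval -0.22 to 0.21). The male-predominant Cyp2d9 averaged 8.94 ± 0.22 in responders (SD, n = 10) and 8.87 ± 0.21 in non-responders (SD, n = 10), a difference of 0.11 (SE 0.09). Cyp2d10 differed by 0.10 (SE 0.08) and Cyp2d26 by 0.02 (SE 0.07). Of the other 2 tested probes of Cyp2d22, 1 went the opposite way, at -0.15 (SE 0.11). Under normexp all 7 genes of the subfamily were lower in responders.

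Among the single-gene subfamilies, Cyp2e1, the ethanol-oxidising enzyme of central-vein hepatocytes, ran from 7.87 to 8.37 in responders and from 7.60 to 8.41 in non-responders. Its difference was 0.19 (SE 0.09, limma unadjusted p = 0.0597). That p fell under 0.05 with quantile normalization, the authors' deposited values, plain background subtraction, a trended robust variance and the second slide series alone. It did so too without any 1 of responders 3, 7 and 10 or non-responders 1, 2 and 3, and the adjusted p passed in none of these. It was -0.03 in the first and 0.41 in the second slide series, a contrast with an unadjusted limma p of 0.0159 (adjusted 0.421). Cyp2f2, the periportal naphthalene oxidase, differed by 0.09 (SE 0.05), Cyp2r1, a vitamin D 25-hydroxylase, by 0.07 (SE 0.10), and Cyp2s1 by -0.11 (SE 0.26). In subfamily 2j, which includes arachidonic acid epoxygenases, 4 of 5 genes were higher, from 0.05 (Cyp2j5, SE 0.05) to 0.19 (Cyp2j13, SE 0.11). In the first slide series 1 of 5 was higher, with a median of -0.04, and in the second 4 of 5, with a median of 0.36. The median ran from 0.04 to 0.21 on leaving out single livers. Cyp2j6 differed by 0.17 (SE 0.10), and Cyp2j9 was lower by -0.25 (SE 0.18).

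Sex-biased and zonal members were set side by side. All 7 tested female-predominant P450s (Cyp2a4, Cyp2b9, Cyp2b13, Cyp2c40, Cyp3a16, Cyp3a41a and Cyp3a44) had lower responder means, with a median of -0.22, and none had an unadjusted p under 0.05. Several of these genes moved together across livers, so they are not independent, and with normexp or plain background subtraction 2 of the 7 were higher. The same count of 2 held without responder 2, non-responder 3 or non-responder 8, and the median ran from -0.26 to -0.12 (without responder 3) on leaving out single livers. Within the second slide series 3 were higher and 4 lower. The male-predominant Cyp2u1 and Cyp2d9 were higher in responders, Cyp2u1 alone at an unadjusted p under 0.05. Outside the families the male-predominant Cyp4a12a and Cyp7b1 differed by 0.09 (SE 0.15) and 0.08 (SE 0.18). Bcl6, a growth-hormone-responsive repressor that is higher in male liver, differed by -0.87 (SE 0.43, limma unadjusted p = 0.0574). Of 7 pericentral P450s, 3 were higher and 4 lower. Of the other zonal genes, 5 of 7 pericentral and 1 of 6 periportal markers were higher, 1 of them (periportal Sds, -0.56, SE 0.27) at an unadjusted p under 0.05.

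Of the partners that supply electrons and heme, 3 were higher and 5 lower. The cytochrome b5 reductase Cyb5r3 was higher by 0.17 (SE 0.07, limma unadjusted p = 0.0261, not passing adjustment). Por averaged 6.85 ± 0.70 in responders (SD, n = 10) and 7.26 ± 0.51 in non-responders (SD, n = 10), a difference of -0.45 (SE 0.27). Alas1, the first enzyme of heme synthesis, differed by -0.48 (SE 0.54). Of 17 tested receptors and transcription factors 5 were higher and 12 lower, none at an unadjusted p under 0.05. The PXR gene Nr1i2 differed by -0.37 (SE 0.23), the CAR gene Nr1i3 by 0.05 (SE 0.14), Hnf4a by -0.22 (SE 0.13) and Ppara by -0.10 (SE 0.09).

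The next comparison asked whether the difference between responders and non-responders was alike in the 2 slide series. Among member probes 6 of 59, or 10.2%, had an unadjusted p under 0.05 for the contrast between series, beside 9.89% of all tested probes, and none passed adjustment (0% of all tested probes did). Besides Cyp2u1, Cyp2e1 and Cyp3a16 these were Cyp2c66, Cyp2g1 and Cyp2j13. Cyp2c66 differed by 1.03 (SE 0.25) in the first series and -0.18 (SE 0.43) in the second. Cyp2j13 differed by -0.04 (SE 0.12) and 0.42 (SE 0.14). Cyp2g1, a P450 named for olfactory mucosa, differed by 1.37 (SE 0.79) and -1.26 (SE 0.41), the only member whose difference exceeded 1 log2 unit in both series.

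**Figure D3:**
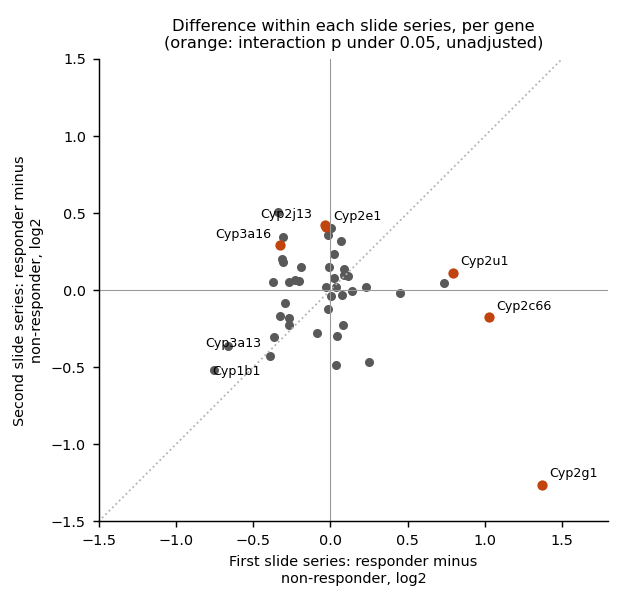
Difference in log2 signal, responder minus non-responder, within the first (horizontal) and second (vertical) slide series for 46 genes; the dotted line marks equal differences and orange points have an unadjusted p under 0.05 for the contrast. Cyp1b1 and Cyp3a13 lie near the dotted line, and Cyp2g1 lies farthest from it at 1.37 and -1.26.

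The rule also asked how far members spread between livers. After removing group and slide series, the residual SD had a median of 0.35 over the 46 genes, against 0.23 over all tested probes. Subfamilies differed in it: the median was 1.01 for 2b, 0.57 for 2a, 0.36 for 2c and 3a, and 0.19 for 2d. The narrowest members were Cyp2j5 with 0.09 and Cyp2f2 with 0.10, at the 0.803 and 2.19 percentiles of all tested probes. Cyp2a12, a steroid hydroxylase, had 0.13. The widest were Cyp2b13 with 1.55, Cyp2b9 with 1.30, Cyp2g1 with 1.28 and Cyp2c65 with 0.99, all dim. Cyp2a5 and Cyp2a4 were well above background in all 20 livers and lay at the 97.4 and 97.3 percentiles with 0.88 and 0.86.

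**Figure D4:**
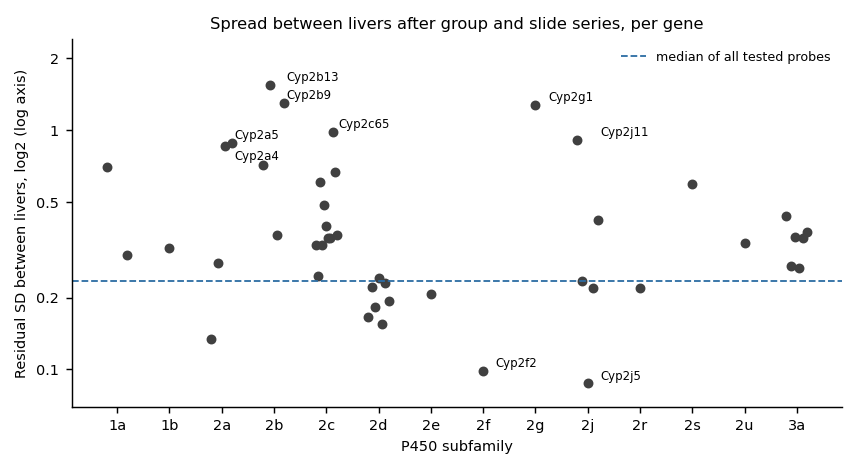
Residual SD of the log2 signal between livers after group and slide series (log axis), for each of 46 genes by subfamily; the dashed line is the median of all tested probes, 0.23. Subfamily 2d clusters at or below 0.24, while Cyp2b13 reaches 1.55 and Cyp2j5 only 0.09.

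A test of whether members spread more in one group than in the other called none after adjustment (0 of 59, beside 0% of all tested probes). At an unadjusted p under 0.05 it called 2 of 59, or 3.39%, beside a background of 9.1%. On leaving out single livers it called 2 to 7, with 7 without non-responder 3. Over all 26160 tested probes it then called 2270 to 2845, with 2504 without non-responder 3. This test has little power after adjustment. On simulated data it recovered very few probes whose spread had been widened, so an absence of calls does not show equal spread. The member with the smallest p was Cyp2g1, with an SD of 0.43 in responders and 1.81 in non-responders (unadjusted limma p = 0.00142, adjusted 0.334). Its mean absolute deviation within group and slide series, the value tested, was 0.29 in responders and 1.29 in non-responders. The other Cyp2g1 probe, not tested, was well above background in 0 responder and 0 non-responder livers. On the tested probe responders lay between -3.66 and -2.09. Non-responders 5 and 6, of the first slide series, were at -6.45 and -5.40. Non-responders 7, 9 and 10, of the second, were at -0.89, -1.47 and -0.94. The SD over all non-responders therefore also holds a difference between series. The other was Cyp2j9, a subfamily 2j member also known from brain, with an SD of 0.30 in responders and 0.54 in non-responders (unadjusted limma p = 0.0404, adjusted 0.526). Its extremes were both non-responders, at -0.25 and 1.74.

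Cyp2a4, a testosterone 15-alpha-hydroxylase, and Cyp2a5, the coumarin 7-hydroxylase, varied together. Cyp2a5 ran from 5.44 to 7.70 with a median of 6.86 in responders, and from 5.46 to 8.18 with a median of 7.20 in non-responders, a 6.70-fold range over all livers. Cyp2a4 ran from 5.44 to 7.43 with a median of 6.59 in responders, and from 5.23 to 7.74 with a median of 7.04 in non-responders. Both groups held high and low livers. On all 4 tested probes of the 2 genes the same 5 livers were highest, responders 2 and 5 and non-responders 1, 2 and 3, and the same 4 were lowest, responders 3 and 4 and non-responders 6 and 8. Across 20 livers Pearson's r between the genes was 0.99 and Spearman's rho 0.98. Each had a two-sided permutation p of 1e-05, the smallest that 100000 resamples can give, and 3.5e-05 after adjustment over the 14 pairs examined. Those 14 include pairs chosen after the values were seen, which can lower the adjusted p-values of the others. Within the first and second slide series r was 1.00 and 0.99, and without the 2 livers farthest from the median it was 0.99. The probe stretch shown above belongs to another Cyp2a4 probe than the one correlated here. The correlated Cyp2a4 probe was not in a pair over 80% equal with the Cyp2a5 probe. Whether each probe read only its own gene was not tested. The groups themselves differed by -0.22 (SE 0.37) for Cyp2a4 and -0.19 (SE 0.38) for Cyp2a5.

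Cyp2a12 and Cyp2a22 of the same cluster did not share that range: Cyp2a12 spanned 1.37-fold and Cyp2a22 2.21-fold over all livers. Cyp2a12 and Cyp2a5, a pair chosen after the values were seen, had r = 0.30 and rho = 0.28, given as a description with no test. Dbp, a clock-driven activator known to bind the mouse Cyp2a4 and Cyp2a5 promoters, was compared after the spread of Cyp2a5 had been seen, so its p-values are not independent evidence. Its level ran from 2.15 to 6.23 in responders and from 0.90 to 6.63 in non-responders. The 4 lowest Dbp values were in non-responders 8, 5 and 6 and responder 3, at 0.90, 1.79, 2.05 and 2.15, and all 4 of these livers were among the 6 with the lowest Cyp2a5. Over 20 livers r was 0.72 (permutation p = 0.0005, adjusted 0.0014) and rho 0.54 (permutation p = 0.0161, adjusted 0.0322). Within the first and second series r was 0.79 and 0.83. Without the 2 livers farthest from the Cyp2a5 median, r was 0.64 (adjusted permutation p = 0.0127), while rho was 0.39 with a permutation p of 0.11. The rank relation thus did not pass without those livers. The 3 livers with the highest Cyp2a5, non-responders 1, 2 and 3, had Dbp values of 4.50, 5.01 and 4.94, below those of several livers with less Cyp2a5. Dbp itself differed between groups by 0.31 (SE 0.76).

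**Figure D5:**
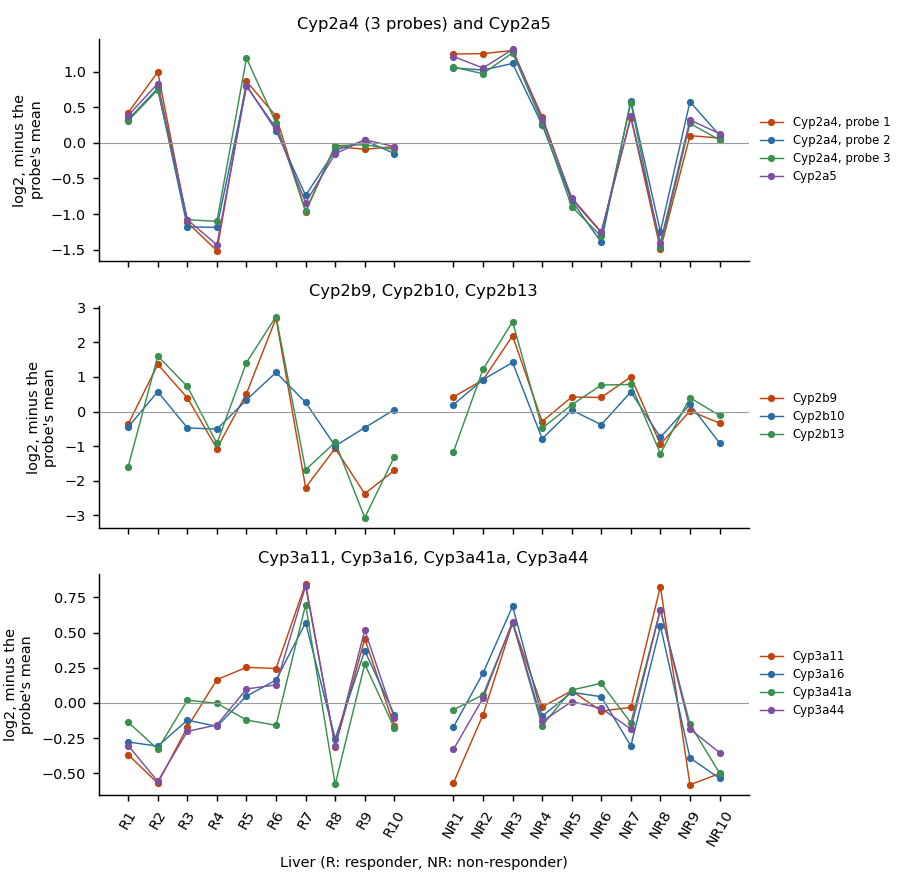
Log2 signal of each probe minus its mean over all 20 livers, for responders 1 to 10 (left) and non-responders 1 to 10 (right); lines join livers of a group only to guide the eye. All 4 Cyp2a4 and Cyp2a5 probes trace the same profile, Cyp2b9 and Cyp2b13 peak in responder 6 and non-responder 3, and the 4 Cyp3a genes peak in responders 7 and 9 and non-responders 3 and 8.

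In subfamily 2b the same 2 livers, responder 6 and non-responder 3, held the highest values of Cyp2b9, Cyp2b10 and Cyp2b13. Each of these genes had another probe, too dim to test. For Cyp2b9 and Cyp2b13 it was well above background in 1 responder and 0 non-responder livers, and for Cyp2b10 in 2 of each group. Whether each tested probe read only its own gene was not tested. Cyp2b9 reached -0.61 in responder 6, with a responder median of -4.01 and a lowest value of -5.67. In non-responders it ran from -4.25 to -1.12 with a median of -2.89. Cyp2b13 reached -2.16 in responders with a median of -5.81, and -2.31 in non-responders with a median of -4.61. Cyp2b9 and Cyp2b13, a pair chosen after their spread was seen, had r = 0.92 and rho = 0.90, given as a description with no test. Within the first and second series r was 0.86 and 0.97, and without the 2 livers farthest from the median it was 0.87. Cyp2b9 and Cyp2b10 correlated at r = 0.67 (permutation p = 0.00118, adjusted 0.00275) and rho = 0.70 (permutation p = 0.00083, adjusted 0.00232). Without responder 6 and non-responder 3 that r was 0.47, with an adjusted permutation p of 0.103, so the linear relation no longer passed. Without them rho was 0.59, with an adjusted permutation p of 0.0267. With other genes no test of Cyp2b10 passed. Its r was 0.15 with Cyp3a11, -0.04 with Cyp2c55 and -0.02 with the PPAR-alpha target Cyp4a14, with permutation p-values of 0.525, 0.872 and 0.929.

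Within subfamily 3a, responders 7 and 9 and non-responders 3 and 8 held the 4 highest values of Cyp3a11, Cyp3a16, Cyp3a41a and Cyp3a44. Cyp3a11 ran from 3.98 to 5.40 with a median of 4.55 in responders, and from 3.97 to 5.37 with a median of 4.50 in non-responders. Cyp3a44 ran from 3.63 to 5.01 with a median of 4.05 in responders, and from 3.83 to 4.85 with a median of 4.10 in non-responders. Cyp3a11 and Cyp3a44, another pair chosen after the values were seen, had r = 0.94 and rho = 0.91, again a description. The r was 0.96 and 0.92 within the first and second series, and 0.89 without responder 7 and non-responder 8. The probes of these 4 genes are unlike each other, but the transcripts are close relatives, and a second Cyp3a44 probe was well above background in none of 20 livers. The assignment of the signal to a single Cyp3a gene is therefore uncertain. For Cyp3a11 and its electron donor Por the correlation was r = -0.05 and rho = 0.01 with permutation p-values of 0.844 and 0.967.

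Cyp2c29 and Cyp2c40 were set side by side because their values had been seen to run together, so their correlation is a description too. Cyp2c29 ran from 6.48 to 7.51 in responders and from 6.31 to 7.38 in non-responders, and Cyp2c40 from 6.68 to 7.95 in responders and from 6.39 to 7.97 in non-responders. The pair had r = 0.92 and rho = 0.90, with r of 0.96 and 0.89 within the first and second series and 0.90 without the 2 livers farthest from the median. For 3 other fixed pairs Pearson's r did not pass. It was 0.06 for Cyp1a1 with Cyp1a2, 0.35 for Cyp2e1 with Cyp1a2 and 0.43 for Cyp2a4 with Cyp2b9, with permutation p-values of 0.81, 0.134 and 0.0567. For Cyp2a4 with Cyp2b9 the rank correlation did pass, at rho = 0.59 (permutation p = 0.00729, adjusted 0.017). It also passed without the 2 livers farthest from the Cyp2a4 median, at 0.64 (adjusted permutation p = 0.0136). It did not pass with quantile normalization, at 0.49 (0.0604). Within the first and second slide series, with fewer livers, it did not pass either, at 0.60 (0.174) and 0.71 (0.0764).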

How the data were processed

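Total RNA of 20 mouse livers was labelled with Cy3 and hybridised to 1-colour arrays, per the labels. The deposited scanner files hold spot intensities from Agilent Feature Extraction, in version 10.5.1.1 according to these headers, whereas the submitters' processing notes name 9.1. The deposited value table (33220 rows, 63 member probes), whose intensity scale and normalization are not given in the sources used here, served as an alternative. The processed intensities, background-subtracted by the authors per the file headers, were put on the log2 scale and centred on the array's 75th percentile. Controls and flagged outliers were removed, and replicate spots averaged per probe. The 26160 probes read well above background by 5 or more arrays of 1 group were tested with limma 3.58.1 (R 4.3.3), with slide series as a term. The spread test fitted absolute deviations from each liver's own group and series mean. Correlations used 100000 two-sided permutations. Array number limits the precision. On simulated data the group and series fits recovered the larger changes, while the spread fit recovered very few widened probes after adjustment. The larger changes were set at several times the probe's residual SD, so smaller differences may be missed.

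Members, gene lists and tests were chosen with earlier results of these data known. Genes are named by smallest p or widest residual SD in each subfamily, any unadjusted p under 0.05, or a fixed list; Cyp2c50 and Cyp2c69 of that list had no probe under these names, so the pair Cyp2c37 and Cyp2c50 could not be examined. Of 72 member probes 67 matched RefSeq by accession, with the symbol unchanged in all but 1 (Cyp2c44, now Cyp2c23). Gene lists are described by counts, with no set test. Alternatives covered scaling, background, filter, slide, weights, probe choice, the authors' deposited values and leaving out each liver.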

Additional observations from a re-analysis of the deposited data

Results flagged for a closer look

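In each group of 10 livers the most extreme value of each of the 46 genes was compared with its nearest neighbour, relative to the group's range (Dixon's test at 95%). Of 92 groups examined 6 held an outlying liver, and chance flags about 1 in 20 groups. The 1 responder case was Cyp3a25 in responder 5, at 6.11 with the next liver at 5.47. The 5 non-responder cases were Cyp2c44 in non-responder 4 (4.72, next 5.52), Cyp2c55 in non-responder 1 (-3.90, next -2.95), Cyp2d12 in non-responder 10 (6.47, next 7.02), Cyp2d26 in non-responder 10 (8.49, next 8.89) and Cyp2s1 in non-responder 7 (-0.78, next -1.62). Both Cyp2d genes were lowest in the same liver.

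Among probes too dim to test, 5 were well above background in more responder than non-responder arrays. Cyp2w1 was so in 2 responder and 0 non-responder arrays. Single probes of Cyp2b9, Cyp2b13, Cyp2b19 and Cyp2j11 were so in 1 responder and 0 non-responder arrays each, and 1 of Cyp2j13 went the other way, with 0 responder and 1 non-responder arrays.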

How the results depend on the processing

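No member probe passed the adjusted threshold in the group comparison, the series contrast or the spread test under any alternative run. The number of member probes at an unadjusted p under 0.05 in the group comparison, 3 as reported, was 6 with quantile normalization and with the authors' deposited values. It was 5 with no filter on dim probes, in either slide series alone and with the replicate number as a block, and 3 to 8 on leaving out each liver. The lowest count was 2, with normexp and with only probes well above background on all 20 arrays. Over all tested probes the count, 2134 of 26160 as reported, was 2246 with quantile normalization and 1850 of 21727 with the authors' deposited values. It was 2412 of 41174 with no filter, 2662 and 2001 in the first and second series, and 2825 with the replicate block. With normexp it was 582, and with only probes well above background on all 20 arrays 1830 of 21450. On leaving out each liver it ran from 1746 to 2554. The replicate block added Cyp2b9 to the genes under 0.05. Same-numbered livers correlated between -0.19 and 0.56 in their deviations, with 6 of 10 pairs over 0.1. Of the responders, 3 of 10 lay closest to their own number. No chance level was computed for these values, so they do not show whether the numbers pair livers. The labels do not say that they do, and the main fit used no such block. The spread count, 2 as reported, was 1 with the median as the centre, 4 with quantile normalization and 2 to 7 on leaving out each liver. Over all 26160 tested probes it was 2381, 1148 and 2444 in the same order, and 2270 to 2845 on leaving out each liver. The correlation of Cyp2b10 and Cyp2b9, 0.67, was 0.47 without the 2 livers farthest from the median of Cyp2b10 (adjusted permutation p = 0.103), 0.67 within the first slide series (0.0751) and 0.67 within the second one (0.079), where fewer livers were tested. In the same order rho was 0.59 (0.0267), 0.77 (0.0346) and 0.56 (0.194). All these adjusted values count the pairs chosen after the values were seen, and an adjustment over the other pairs alone was not run. Cyp1b1, Cyp2u1 and Cyp3a13 kept an unadjusted p under 0.05 without any 1 liver, but all 3 lost it in the second slide series alone, and Cyp1b1 also with normexp and with plain background subtraction. Under other settings Cyp1b1 ran from -0.44 to 0.26, the positive value with normexp, Cyp2u1 from 0.11 to 0.79 and Cyp3a13 from -0.80 to -0.28. Normexp moved the median of all probes by over 0.1, to 0.12, that of member probes to -0.39, and turned the sign of 21 of 46 genes. On 6 arrays, 4 of them responders, its fitted background mean was far below 0, so its values are given for completeness. Differences of dim probes (among them Cyp1b1, subfamily 2b, Cyp2c65, Cyp2c66 and Cyp2g1) are limited by signal over background.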
